A study of Mus musculus with 20 samples.

Results

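The transcripts examined here encode 10 structural proteins of the adult ventricular sarcomere: Ttn, Mybpc3, Myl2 and Myl3 of the thick filament, Tnnt2, Tnni3, Tnnc1 and Tpm1 of the thin filament, and Actn2 and Ldb3 of the Z-disc. They were chosen by gene symbol, and every probe set that the platform annotation gives to one of these symbols alone was taken, which made 24 probe sets of the 45037 on the array once control probe sets were left out. Left ventricular RNA of 20 mice, all male and of the C57BL/6J strain, was hybridised to GeneChip Mouse Genome 430 2.0 arrays, 1 for each mouse. The mice were 6 weeks old on arrival, were acclimated for 2 weeks and were then fed for 4 weeks. The chow carried powdered tablets of 1 statin, and control mice received it without a statin, with 4 mice in each of the 5 groups. The daily dose per kg of body weight was 4.5 mg for pitavastatin, 21.0 mg for pravastatin, 10.9 mg for rosuvastatin and 11.4 mg for atorvastatin. Statins inhibit HMG-CoA reductase, the enzyme that commits carbon to cholesterol synthesis, and the series asks how they change expression in the normal mouse heart. Because the daily doses differed, the statins are set side by side and no pair of statins was tested. Each statin, and their mean, was tested against control, and an F test asked whether any of the 5 groups differed. Mice are called by group and label number, such as rosuvastatin 3.

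The sarcomere is the contractile unit of striated muscle, in which myosin heads on thick filaments pull actin-based thin filaments toward the middle of the unit. Calcium binding to troponin C shifts tropomyosin on the thin filament and opens the sites at which myosin attaches, and the Z-disc anchors the thin filaments of neighbouring sarcomeres. Ventricular cardiomyocytes carry these transcripts among their most abundant messages, with isoforms that differ from those of the atria, of skeletal muscle and of the fetal heart, and mutations in several of the genes cause inherited cardiomyopathy in humans.

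The start-site sequences are shown for the 4 genes whose upstream window holds the muscle CAT element and for Ldb3, the gene whose signal followed the others least. Each is the 250 bases before a RefSeq start site (build GRCm38.p6), 5′ to 3′ on the strand of the gene, and all 10 genes matched, with 13 windows because Tnnt2, Myl2 and Ldb3 have a pair of start sites each. Capitals mark CATTCC, the muscle CAT element, or its reverse complement GGAATG, and the CArG box, the element known to bind serum response factor. For genes with a pair of start sites the first listed window is given.
Tnnt2 (chr1:135836084-135836333, plus strand): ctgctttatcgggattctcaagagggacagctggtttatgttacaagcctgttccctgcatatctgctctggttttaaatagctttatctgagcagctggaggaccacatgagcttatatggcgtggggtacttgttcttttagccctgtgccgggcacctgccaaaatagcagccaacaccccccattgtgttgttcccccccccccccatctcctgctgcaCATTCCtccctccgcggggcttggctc
Tnnc1 (chr14:31208062-31208311, plus strand): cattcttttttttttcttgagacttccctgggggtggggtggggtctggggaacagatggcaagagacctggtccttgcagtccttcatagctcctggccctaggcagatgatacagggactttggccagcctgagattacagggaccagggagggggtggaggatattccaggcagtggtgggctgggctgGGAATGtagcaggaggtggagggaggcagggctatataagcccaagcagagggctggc
Myl3 (chr9:110763428-110763677, plus strand): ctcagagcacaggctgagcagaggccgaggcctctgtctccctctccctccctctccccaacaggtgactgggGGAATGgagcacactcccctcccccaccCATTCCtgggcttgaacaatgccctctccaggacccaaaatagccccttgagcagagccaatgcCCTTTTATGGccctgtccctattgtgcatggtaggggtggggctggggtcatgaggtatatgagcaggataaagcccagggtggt
Tpm1 (chr9:67049214-67049463, minus strand): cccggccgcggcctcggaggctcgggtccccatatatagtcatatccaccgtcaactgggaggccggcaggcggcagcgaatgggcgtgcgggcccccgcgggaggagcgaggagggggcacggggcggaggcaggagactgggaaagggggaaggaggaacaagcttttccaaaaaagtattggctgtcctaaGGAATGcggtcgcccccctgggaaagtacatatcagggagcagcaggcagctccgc
Ldb3 (chr14:34588682-34588931, minus strand): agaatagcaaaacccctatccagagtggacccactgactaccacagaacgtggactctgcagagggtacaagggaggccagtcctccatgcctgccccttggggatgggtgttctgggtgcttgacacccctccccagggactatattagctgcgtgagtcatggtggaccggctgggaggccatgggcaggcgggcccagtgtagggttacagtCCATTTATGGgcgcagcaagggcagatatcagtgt

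Read on both strands, CATTCC was in a window of 4 of the 10 genes, or 4 of their 13 windows. It was in 12.6% of the 32851 mouse promoter windows of the same length. Myl3 had it in 2 places, 177 and 149 bases before the start, and Tnnt2 had it 27 bases before the start. A CArG box was found in Myl3 and in both Ldb3 windows, 3 of 13 windows, against 1.47% of all windows. The Ldb3 windows overlap, and their CArG box is the same site. A MEF2 site was found in Ttn and Mybpc3, 2 of 13 windows, against 2.92%. The E-box, CANNTG, was in a window of 9 of the 10 genes, all but Ldb3. That made 11 of the 13 windows, against 66.2% of all windows. TATAAA was in 1 gene (Myl2), 1 of 13 windows, and in 12.4% of all windows. No match of CATTCC overlapped a CArG box. These are letter matches, and binding was not measured.

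The deposited MAS5 signals had been scaled so that each array had a trimmed mean of 500, and they were analysed as log2(signal + 16). The median probe set signal of an array ran from 41.7 to 144.1, and the highest signal without controls ran from 29700 to 71520. Rosuvastatin 3 had the lowest median and the lowest maximum, atorvastatin 2 the highest median, and atorvastatin 4 the highest maximum. The log2 array median averaged 6.52 ± 0.15 under pitavastatin, 6.43 ± 0.33 under pravastatin, 6.09 ± 0.48 under rosuvastatin and 6.44 ± 0.50 under atorvastatin, against 6.56 ± 0.26 in control mice (SD, n = 4 each). Each statin differed from control by less than a two-sided exact permutation test could call (p = 0.771, 0.629, 0.171 and 0.629, where 0.0286 is the smallest p possible). RNA of a whole ventricle was measured, so fewer cells of a type and less RNA per cell cannot be told apart. Precision is limited by 4 arrays a group: over the 10 genes the median 95% interval of a log2 fold change was 0.47 wide on each side. Nothing in the labels says which mice shared a cage or a processing day.

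The left ventricular label was checked against muscle isoforms, none of which separates the left ventricle from the right. Myh6 and Actc1, the heavy chain and actin of the adult mouse heart, lay at the top of the signal range with mean signals of 35610 and 36990. As genes of the whole heart they do not separate ventricle from atrium. Tnni1, the troponin I of fetal heart and slow muscle, had a mean signal of 8.18, and 7 of 8 skeletal muscle markers were below the filter. Yet of 16 isoforms of other muscles or stages 10 were above it. Among them were Tnnt1 (mean signal 402), Mybpc2 (546), Myl4 (826) and Myl1 (1142). Of the atrial markers, Nppa had a mean signal of 7438, while Sln, Mybphl and Myl7 were below the filter by their means. The atrial light chain Myl7 varied between mice from 4.25 to 10.32 on the log2 scale. It was highest in rosuvastatin 3 (10.32) and pitavastatin 2 (10.29), followed by control 1 (8.29) and pravastatin 1 (7.75), and Myl4, the other atrial light chain, was highest in the same 4 mice. Pitavastatin 2 held the highest Mybpc3 and Actn2 signals of the 20 mice, and rosuvastatin 3 the lowest Ttn, Myl2 and Ldb3 signals. The part of atrial RNA in the results below was not tested.

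All 10 genes had a probe set in the top 1% of signals, the 450 probe sets with a mean above 13995, and 14 of the 24 probe sets lay there. The brightest probe set of each gene stands for the gene in what follows. Myl3 had the highest or nearly the highest signal on every array, between rank 1 and rank 3, with signals of 28130 to 71520. Tnnt2 ranked between 3 and 13 on the single arrays and Myl2 between 4 and 16. Actn2 (rank 302 to 514) and Mybpc3 (rank 230 to 509) were lower in the range and left the first 450 places on some arrays. Just inside the 1% limit lay a Myl3 probe set ranked 427 by mean signal (1427769_x_at), and just outside it an Ldb3 probe set ranked 479 (1416752_at). The deposited values hold no saturation mark, so a ceiling on the brightest probe sets was not tested. Of the 24 probe sets 23 were above the filter of 81.8 on the signal and were tested, and a dim Ttn probe set (1446450_at, mean signal 51.2) was not.

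**Figure D1:**
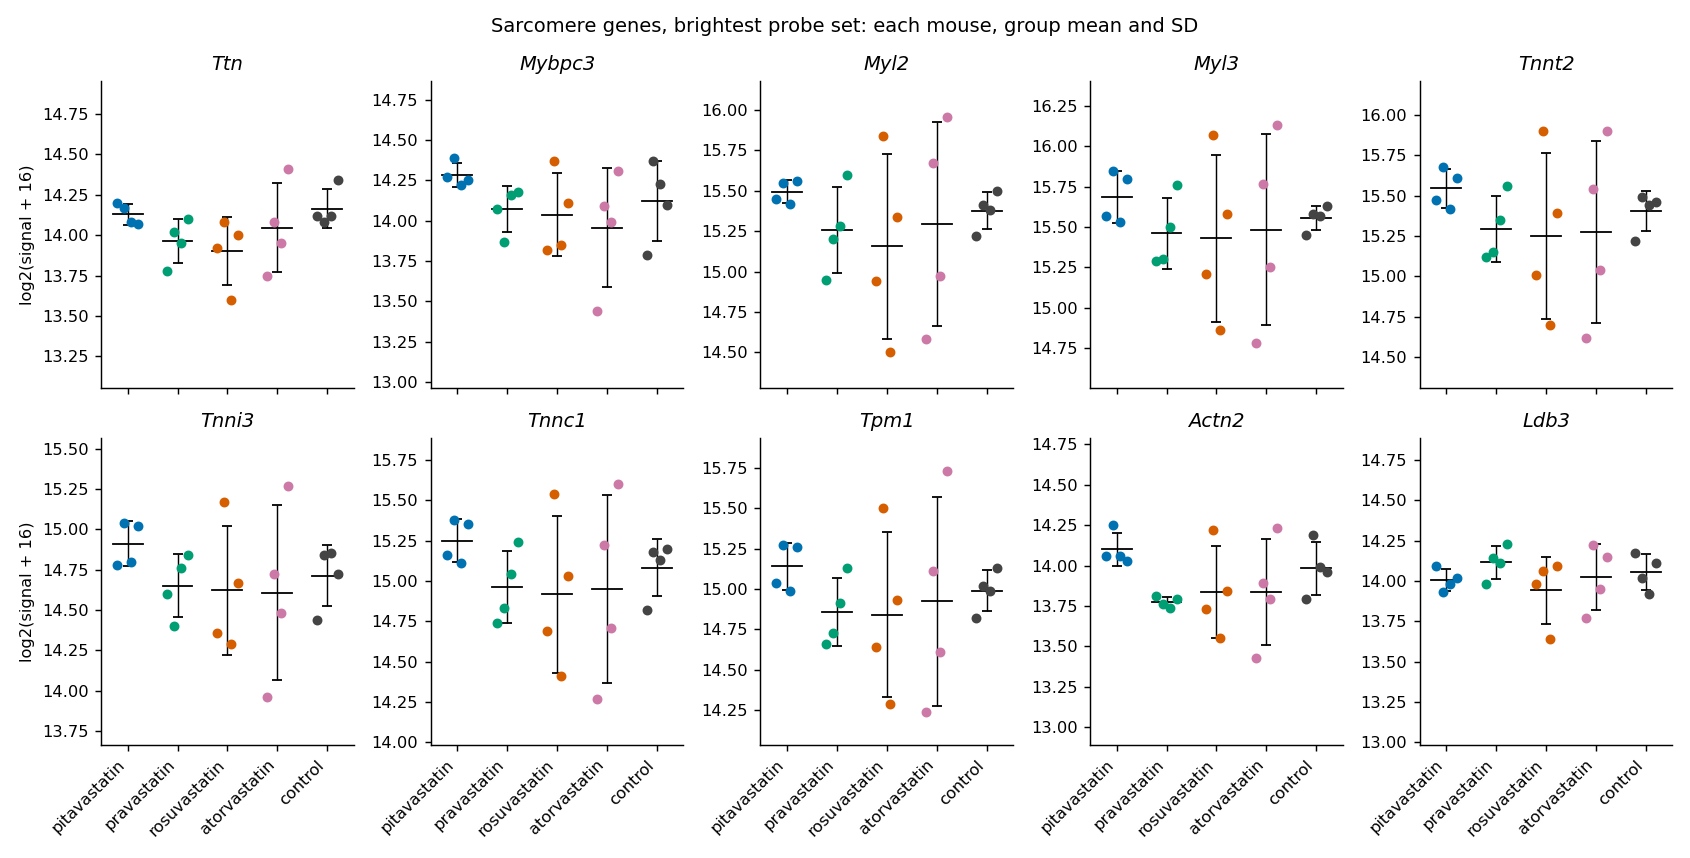
Each panel plots log2(signal + 16) of 1 gene's brightest probe set, with a point for each mouse, a horizontal line at the group mean and a bar of 1 SD to either side (n = 4 per group). Every vertical axis spans the same range. For 7 genes the lowest point is atorvastatin 1 and for the other 3 it is rosuvastatin 3, and the points of every group overlap those of control.

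For each thick filament gene the values of every statin group overlapped those of control. Ttn, the giant elastic protein that spans from Z-disc to M-band, had log2 signals of 14.20, 14.17, 14.08 and 14.07 under pitavastatin, 13.78, 14.02, 13.95 and 14.10 under pravastatin, 13.92, 14.08, 13.60 and 14.00 under rosuvastatin and 13.75, 14.08, 13.95 and 14.41 under atorvastatin, against 14.12, 14.08, 14.12 and 14.34 in control mice. All 4 rosuvastatin and all 4 pravastatin mice were below the control mean, yet the highest of each group reached the lowest control. The mean was 13.90 ± 0.21 in rosuvastatin and 14.16 ± 0.12 in control mice (SD, n = 4 each), a log2 fold change of -0.26 ± 0.12 (SE) with an unadjusted p of 0.0486 and a limma adjusted p of 0.452. Without rosuvastatin 3 the value was -0.16, and it was 0.12 with each array centred on its median signal.

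Myl2, the regulatory light chain of ventricular myosin, varied most of the 10 genes, with an SD of 0.38 over the 20 mice. Its log2 signals were 15.45, 15.55, 15.42 and 15.56 under pitavastatin, 14.95, 15.20, 15.28 and 15.60 under pravastatin, 14.94, 15.84, 14.50 and 15.34 under rosuvastatin and 14.58, 15.67, 14.97 and 15.96 under atorvastatin, against 15.22, 15.41, 15.38 and 15.50 in control mice. The 4 pitavastatin mice lay within 0.14 of each other, whereas rosuvastatin and atorvastatin each held mice both above and below every control. Myl3, the essential light chain of the ventricle, showed the same arrangement, from 14.86 to 16.07 in rosuvastatin and from 14.78 to 16.13 in atorvastatin, against 15.45 to 15.63 in control mice. Mybpc3, cardiac myosin-binding protein C, which tunes how myosin heads meet actin, averaged 14.28 ± 0.07 under pitavastatin, 14.07 ± 0.14 under pravastatin, 14.04 ± 0.26 under rosuvastatin and 13.96 ± 0.37 under atorvastatin, against 14.12 ± 0.25 in control mice (SD, n = 4 each).

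The thin filament genes varied together from mouse to mouse, and none of the 4 differed between a statin and control in the test. Tnnt2, the troponin subunit that holds the complex on tropomyosin, had log2 signals of 15.47, 15.68, 15.42 and 15.61 under pitavastatin, 15.12, 15.15, 15.35 and 15.56 under pravastatin, 15.01, 15.90, 14.70 and 15.39 under rosuvastatin and 14.62, 15.54, 15.04 and 15.90 under atorvastatin, against 15.22, 15.49, 15.44 and 15.46 in control mice. Rosuvastatin 2 and atorvastatin 4 were the highest of all mice, and atorvastatin 1 and rosuvastatin 3 the lowest. Tnnc1, the calcium-binding subunit, placed its mice almost identically, with a Pearson r with Tnnt2 that rounds to 1 over the 20 arrays. Its means were 15.25 ± 0.14 under pitavastatin, 14.96 ± 0.22 under pravastatin, 14.92 ± 0.48 under rosuvastatin and 14.95 ± 0.58 under atorvastatin, against 15.08 ± 0.18 in control mice (SD, n = 4 each). Tnni3, the inhibitory subunit of the adult heart, ranged from 13.96 in atorvastatin 1 to 15.27 in atorvastatin 4, and the 4 control mice lay between 14.44 and 14.85. Tpm1, the tropomyosin that covers the myosin sites on actin, ranged from 14.24 to 15.73 in the same mice, against 14.82 to 15.13 in control mice.

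Of the Z-disc genes, Ldb3 had the narrowest range of the 10 over the 20 mice, from 13.64 to 14.23 on the log2 scale. Actn2, the alpha-actinin that cross-links thin filaments, had log2 signals of 14.06, 14.25, 14.06 and 14.03 under pitavastatin, 13.81, 13.76, 13.74 and 13.79 under pravastatin, 13.73, 14.22, 13.55 and 13.84 under rosuvastatin and 13.43, 13.89, 13.79 and 14.23 under atorvastatin, against 13.79, 14.19, 13.99 and 13.96 in control mice. The pravastatin values were tightly grouped and met only the lowest control. Their log2 fold change was -0.21 ± 0.14 (SE, unadjusted p = 0.167, limma adjusted p = 0.992). Ldb3, the PDZ and LIM protein also known as Cypher or ZASP, which binds alpha-actinin, averaged 14.00 ± 0.07 under pitavastatin, 14.12 ± 0.11 under pravastatin, 13.94 ± 0.21 under rosuvastatin and 14.02 ± 0.20 under atorvastatin, against 14.05 ± 0.11 in control mice (SD, n = 4 each). It was the 1 gene of the 10 whose mean was highest in pravastatin, which array-median centring did not keep.

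In order of group means on the deposited scaling, 8 of the 10 genes were highest in pitavastatin. The lowest group was rosuvastatin for 7, atorvastatin for 2 (Mybpc3 and Tnni3) and pravastatin for 1 (Actn2). With each array centred on its median signal all 10 were highest in rosuvastatin, where that scaling put 82.7% of all tested probe sets above control. How many of all tested probe sets share these orders was not counted. Quantile normalization again put 8 highest in pitavastatin, and 1 lowest in rosuvastatin. Ttn was highest in control as deposited. For 6 genes the distance between the highest and the lowest group mean was smaller than the SD within groups. For the remaining 4 it was larger, at 0.26 against an SD of 0.18 for Ttn, 0.33 against 0.24 for Mybpc3, 0.33 against 0.21 for Actn2 and 0.17 against 0.15 for Ldb3. Across the groups no gene passed the moderated F test of limma. For the brightest probe sets its unadjusted p ran from 0.182 for Actn2 to 0.834 for Myl3, and its adjusted p was at least 0.787. Among the other probe sets of these genes the unadjusted p was under 0.05 for Tpm1 1423721_at (0.0207, adjusted p = 0.696) and Ldb3 1416752_at (0.0279, adjusted p = 0.734). That test called 1 of all 22518 tested probe sets (0.00444%), which is none of these genes, and 1404 (6.24%) had an unadjusted p under 0.05.

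In pitavastatin hearts most sarcomere transcripts lay slightly above control, within the spread between mice. The fold change was above 0 for 8 of the 10 genes (49% of all tested probe sets), with a median log2 fold change of 0.14, against -0.003 for all tested probe sets. The values ran from -0.05 for Ldb3 to 0.20 ± 0.22 (SE) for Tnni3, and all 4 pitavastatin mice were above the control mean for 6 of the genes. None of the 23 tested probe sets had an adjusted p under 0.05 in limma or an unadjusted p under 0.05, against 0% and 1.93% of all probe sets.

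In pravastatin hearts 9 of the 10 genes had a fold change below 0 on the deposited scaling (55% of all tested probe sets), whereas quantile normalization put 7 of 10 above 0. Ldb3 was at 0.06 ± 0.11 (SE). The median was -0.12 on the log2 scale, against -0.022 for all tested probe sets, and 0.02 after quantile normalization. After Actn2 the lowest value was that of Ttn, at -0.20 ± 0.12 (SE). No probe set of the 10 genes had an adjusted p under 0.05 in limma (0% of all probe sets), and none an unadjusted p under 0.05 (3.93% of all).

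In rosuvastatin hearts all 10 genes had a fold change below 0 on the deposited scaling (54.1% of all tested probe sets), and this turned with other scalings. The values ran from -0.26 for Ttn and -0.22 ± 0.26 (SE) for Myl2 to -0.09 for Mybpc3 and Tnni3. The median was -0.15 on the log2 scale, against -0.02 for all tested probe sets. It was 0.001 without rosuvastatin 3 and -0.33 without rosuvastatin 2, the mice with the lowest and the highest values of the group. No probe set was called in limma (0% of all), and 3 of the 23 had an unadjusted p under 0.05 (11% of all): 2 of Ttn, lower in rosuvastatin, and 1 of Tpm1, higher in rosuvastatin. The sign of the median depended on the scaling: with each array centred on its median signal it was 0.23, with 10 of 10 genes above 0, and that scaling put the median of all tested probe sets at 0.36. Relative to that shift the 10 genes again lay lower. Quantile normalization put 7 of 10 above 0.

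In atorvastatin hearts all 10 genes again had a fold change below 0 (56.1% of all tested probe sets), from -0.17 ± 0.16 (SE) for Mybpc3 to -0.03 ± 0.11 for Ldb3, and 7 of 10 did after quantile normalization. The median was -0.11 on the log2 scale, against -0.028 for all tested probe sets. It was 0.09 without atorvastatin 1 and -0.30 without atorvastatin 4. In limma 0 of the 23 probe sets were called (0% of all) and 1, of Ldb3, had an unadjusted p under 0.05 (4.57% of all). Averaged over the 4 statins, the 10 fold changes lay between -0.15 for Ttn and -0.01 for Tnni3, with 10 of 10 below 0 on the deposited scaling (55.2% of all) and 3 of 10 after quantile normalization. For that mean 0 probe sets were called (0% of all), and 1 of 23, of Tpm1, had an unadjusted p under 0.05 (3.05% of all). All these comparisons share the 4 control mice.

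**Figure D2:**
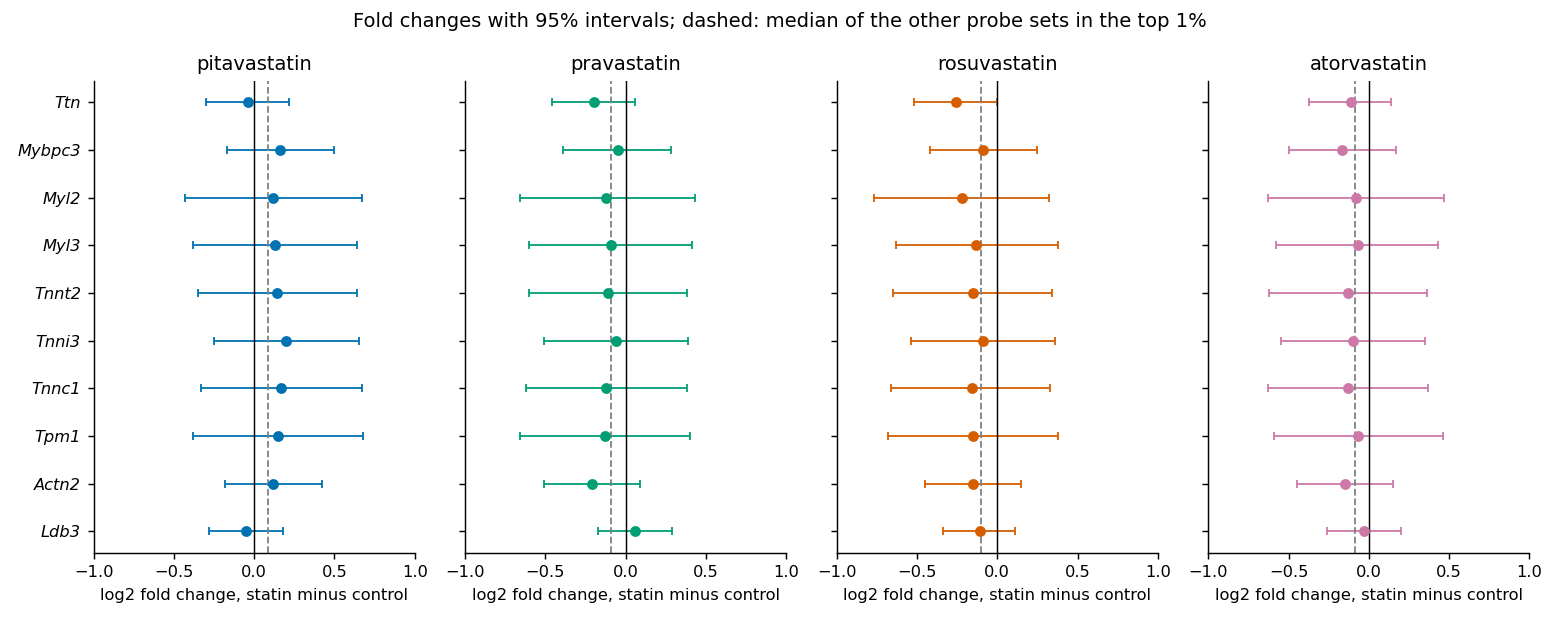
Log2 fold change of each gene's brightest probe set, statin minus control, with its 95% interval from limma, in 1 panel per statin (4 mice against 4). The solid line marks 0 and the dashed line the median of the 436 other probe sets in the top 1%. Points lie mostly right of 0 in pitavastatin and left of 0 in the other statins, and their intervals include 0 apart from Ttn in rosuvastatin, whose interval ends at 0. The values use the deposited scaling, and quantile normalization put 7 of the 10 genes above 0 in pravastatin and in rosuvastatin.

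The other bright probe sets of the array were displaced the same way as the sarcomere genes. Of the 436 remaining probe sets in the top 1%, 80.3% had a fold change above 0 under pitavastatin, and 92.2% under pravastatin, 93.3% under rosuvastatin and 89.7% under atorvastatin had one below 0. Their median log2 fold changes were 0.08, -0.09, -0.10 and -0.09 in that order of statins. Over the 20 arrays the mean of the 10 genes and the median of those other probe sets had a Pearson r of 0.99. The correlation is a description of arrays that share 1 scaling step, and it was 0.96 or more for Tnnt2, Tnni3, Tnnc1, Myl2, Myl3 and Tpm1, 0.84 to 0.88 for Ttn, Mybpc3 and Actn2, and 0.61 for Ldb3.

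The mean of the 10 genes ran from 14.09 in atorvastatin 1 and 14.17 in rosuvastatin 3 to 15.07 in rosuvastatin 2 and 15.17 in atorvastatin 4. Its SD was 0.09 under pitavastatin, 0.16 under pravastatin, 0.39 under rosuvastatin and 0.47 under atorvastatin, against 0.11 in control mice. The corresponding SDs of the other bright probe sets were 0.07, 0.13, 0.30 and 0.35 in the statins and 0.06 in control mice. When each array was centred on the median of those other probe sets, an alternative added after seeing the data, the median of the 10 genes became 0.06 under pitavastatin, -0.02 under pravastatin, -0.04 under rosuvastatin and -0.03 under atorvastatin. The highest array signal varied with the mean of the genes too: 29700 and 33430 were the lowest maxima, in rosuvastatin 3 and atorvastatin 1, and 71520 and 68590 the highest, in atorvastatin 4 and rosuvastatin 2. What part array scaling has in the differences between mice was not tested.

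**Figure D3:**
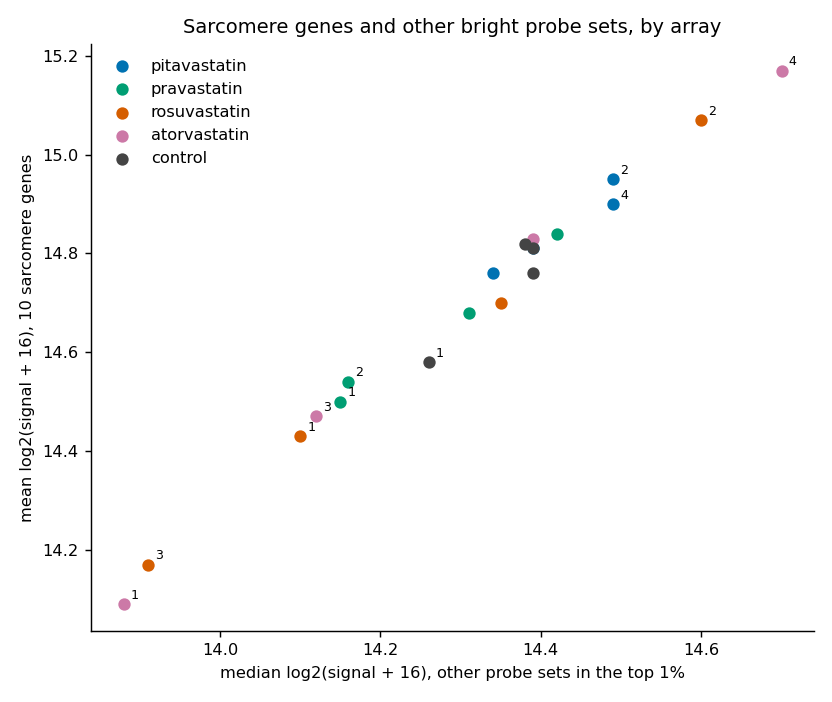
Each point is 1 array, with the median log2(signal + 16) of the 436 other probe sets in the top 1% on the horizontal axis and the mean of the 10 sarcomere genes on the vertical axis, coloured by group. Numbers give the mouse where points do not crowd. The points follow 1 line, with atorvastatin 1 and rosuvastatin 3 at its lower end and rosuvastatin 2 and atorvastatin 4 at its upper end.

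Between pairs of the 10 genes the Pearson r over 20 arrays ran from 0.34 to 1, with a median of 0.87 over 45 pairs. With group means removed it ran from 0.43 to 1, with a median of 0.88. Every pair of 0.98 or more lay among Tnnt2, Tnnc1, Myl2, Myl3 and Tpm1, where Myl2 with Tpm1 was at 0.97. Of these 5, Myl2 has no CATTCC in either of its windows. The 3 pairs under 0.5 joined Ldb3 with Mybpc3 (0.35), Tnni3 (0.44) and Actn2 (0.34). The arrays share their scaling and the genes share the bright end of the range, so these values describe the arrays as well as the genes.

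The single-symbol probe sets outside these 10 genes whose profiles were most like the mean profile of the 10 were those of Rps28, Csrp3, Atp5j2, Ndufb11, Uqcrc2, Ndufv3, Ndufa5 and Hspa8, each with a Pearson r of 0.99 over 20 arrays among 18979 candidates. Csrp3 encodes muscle LIM protein of the Z-disc, 5 of the 8 encode parts of the respiratory chain or ATP synthase, Rps28 is a ribosomal protein and Hspa8 a chaperone. All 8 lie in the top 1% of signals. The median candidate had an r of -0.08, and 185 had 0.9 or more.

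A dimmer Tpm1 probe set did not follow the bright one. Probe set 1423721_at had log2 signals of 11.16, 11.25, 11.00 and 11.16 under pitavastatin, 10.92, 11.06, 11.23 and 11.17 under pravastatin, 11.44, 11.41, 11.54 and 11.41 under rosuvastatin and 11.26, 11.01, 11.22 and 11.16 under atorvastatin, against 11.14, 10.51, 11.34 and 10.96 in control mice. Every rosuvastatin mouse was above every control mouse (as for 1.87% of all tested probe sets). The mean was 11.45 ± 0.06 in rosuvastatin and 10.99 ± 0.35 in control mice (SD, n = 4 each), a log2 fold change of 0.46 ± 0.12 (SE) with an unadjusted p of 0.00158 and a limma adjusted p of 0.452. Over the 20 arrays its r with the brightest Tpm1 probe set was -0.17. Without control 2, the lowest mouse, the value was 0.30.

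Tpm2 and Tagln also had fold changes above 0 in rosuvastatin, under each of the 4 scalings, and in the other statins. Tpm2, the beta-tropomyosin of skeletal and smooth muscle, averaged 10.93 ± 0.11 in rosuvastatin and 10.16 ± 0.24 in control mice (SD, n = 4 each), a log2 fold change of 0.77 ± 0.17 (SE, limma adjusted p = 0.344). Tagln, the smooth muscle protein transgelin, was 1.09 ± 0.26 (SE) higher on the log2 scale in rosuvastatin (adjusted p = 0.377). In the other statins the fold changes were 0.41, 0.27 and 0.40 for Tpm2 and 0.90, 0.38 and 0.42 for Tagln, in pitavastatin, pravastatin and atorvastatin. Of 8 measured smooth muscle and pericyte markers 7 had a fold change above 0 in rosuvastatin (45.9% of all tested probe sets), and 6 after quantile normalization. As deposited, 5 were above 0 in pitavastatin (49% of all), 5 in pravastatin (45%) and 7 in atorvastatin (43.9%). The median of that list in rosuvastatin was 0.09, against -0.02 for all tested probe sets. The mean level of the list, in which Tagln is counted, was 10.84 to 11.01 in rosuvastatin and 10.40 to 10.81 in control mice. Tpm1 is also transcribed in smooth muscle, and which cells or transcript forms probe set 1423721_at reports was not tested.

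**Figure D4:**
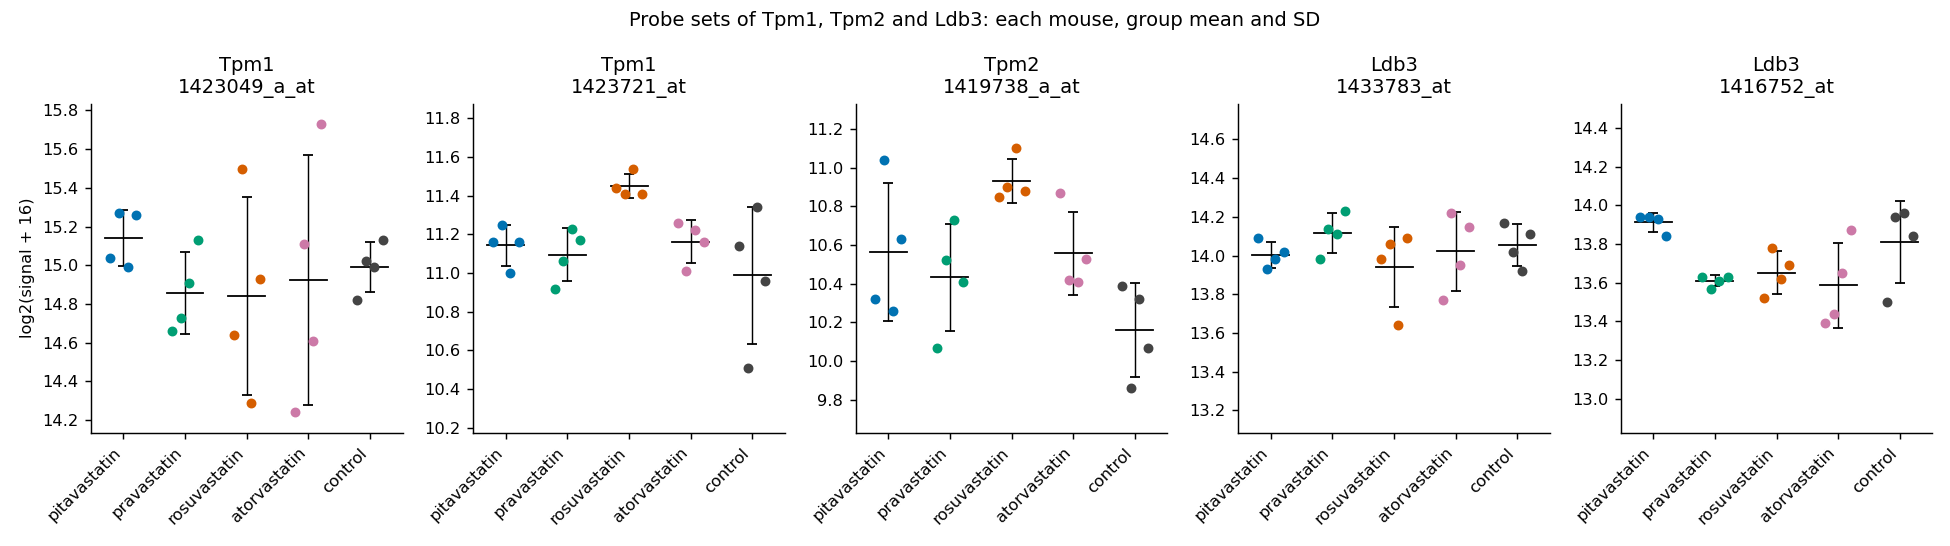
Log2(signal + 16) of the brightest and a second probe set of Tpm1, of Tpm2, and of the brightest and a second probe set of Ldb3, with a point per mouse, the group mean and 1 SD (n = 4 per group). The 4 rosuvastatin points of Tpm1 1423721_at, at 11.41 to 11.54, and of Tpm2, at 10.85 to 11.10, lie above all control points, and the brightest Tpm1 probe set does not show this.

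The remaining probe sets of Ttn and Ldb3 gave partly different pictures from the brightest. Ttn 1427445_a_at, also in the top 1%, had log2 signals of 13.72, 13.69, 13.58 and 13.83 in rosuvastatin mice, against 13.75, 14.00, 13.91 and 14.19 in control mice. Only rosuvastatin 4 was above the lowest control, and the fold change was -0.26 ± 0.11 (SE, unadjusted p = 0.0278, limma adjusted p = 0.452), as large as that of the brightest Ttn probe set, with which its r was 0.83. It was -0.17 after quantile normalization, -0.15 when centred on the other bright probe sets and 0.12 with array-median centring. The 3 dimmer tested Ttn probe sets had an r of 0.03 to 0.57 with the brightest.

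Ldb3 1416752_at had log2 signals of 13.94, 13.94, 13.93 and 13.84 under pitavastatin, 13.63, 13.57, 13.61 and 13.63 under pravastatin, 13.52, 13.78, 13.62 and 13.69 under rosuvastatin and 13.39, 13.44, 13.65 and 13.87 under atorvastatin, against 13.50, 13.94, 13.96 and 13.84 in control mice. Control 1 stood low among the controls. All 4 pravastatin and all 4 rosuvastatin mice were below the control mean, and the values of both groups overlapped those of control. The atorvastatin fold change was -0.22 ± 0.11 (SE, unadjusted p = 0.0494, limma adjusted p = 0.964), and its alternatives ran from -0.33 without control 1 (adjusted p = 0.222) to -0.14 with array-median centring (unadjusted p = 0.564). It was -0.16 after quantile normalization and -0.16 without atorvastatin 1. Ldb3 is known to be spliced into several forms, and the r between this probe set and the brightest one was -0.01.

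For the light chain Myl3 and for Tnnt2 a second bright probe set followed the first closely, at r = 0.98 and 0.99. The third Myl3 probe set, 1427769_x_at, did not (r = 0.23). It was highest in control 1 and atorvastatin 4, both at 14.41, and its fold changes ran from -0.13 ± 0.21 (SE) in pravastatin to 0.15 ± 0.21 in atorvastatin. Its suffix marks a probe set whose probes may match other transcripts, so its signal is uncertain as a measure of Myl3. The second Tnnt2 probe set carries the same suffix and followed the first. The brightest probe sets of Myl3 and Ttn carry the suffix _s_at, and whether their probes match other transcripts was not examined either. Why the third Myl3 probe set differed was not tested.

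Other genes of the sarcomere, taken from lists of thick filament, thin filament and Z-disc components that leave out the 10, gave no call either. In the thick filament and M-band list 9 of 11 genes were measured, and 8 were higher under pitavastatin, 6 under pravastatin, 5 under rosuvastatin and 4 under atorvastatin on the deposited scaling, while centring on the other bright probe sets gave 5, 8, 8 and 7 in the same order. Of all tested probe sets 49%, 45%, 45.9% and 43.9% were higher as deposited, and 29.9%, 66.5%, 66% and 61.1% with that centring. Myh7, the beta myosin heavy chain of the fetal and stressed mouse ventricle, was 0.57 ± 0.18 (SE) higher on the log2 scale in atorvastatin (unadjusted p = 0.00619, limma adjusted p = 0.964), the 1 gene of these 3 lists with an unadjusted p under 0.05 in any statin. Its value was 0.55 to 0.66 under the other scalings. Myom1, a protein of the M-band, was at 0.16 ± 0.10 in pitavastatin.

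In the thin filament list 9 of 11 genes were measured. Acta1, skeletal alpha-actin, was at -0.54 ± 0.35 (SE) in atorvastatin, and Actc1, cardiac alpha-actin, at -0.23 ± 0.23 in rosuvastatin, which was 0.16 with array-median centring. Lmod3, which nucleates actin filaments, was at 0.24 ± 0.12 in pitavastatin. All 15 genes of the Z-disc and intermediate filament list were measured, with 11 higher in pitavastatin as deposited (49% of all tested probe sets). Centring on the other bright probe sets left 6 higher (29.9% of all). In atorvastatin 12 were lower as deposited (56.1% of all). Array-median centring left 6 lower there, with 62.7% of all tested probe sets higher. Tcap, telethonin, which caps titin at the Z-disc, was at 0.31 ± 0.16 in pitavastatin, and Fhl2, a LIM protein that binds titin, was at -0.25 ± 0.14 in atorvastatin. On the deposited scaling the median log2 fold changes of the 3 lists lay between -0.09 and 0.09 in every statin, and array-median centring put them at 0.36 to 0.45 in rosuvastatin, where the median of all tested probe sets was 0.36.

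Isoforms used by other muscles or stages were further apart. Of 16 such genes 10 were measured, and in rosuvastatin 8 were higher (45.9% of all tested probe sets; 9 after quantile normalization), 2 were lower and 4 had an unadjusted p under 0.05 (11% of all), with none called. The list median was 0.20. Beside Tpm2 these were Myl9, the smooth muscle regulatory light chain, at 0.72 ± 0.25 (SE), Actn1, the alpha-actinin of non-muscle cells, at 0.29 ± 0.13 (0.68 with array-median centring), and Mybpc1, the slow skeletal form of myosin-binding protein C, at -1.77 ± 0.59. On the deposited scaling a list of 12 cardiomyocyte membrane and energy genes had medians of 0.09 under pitavastatin, -0.10 under pravastatin, -0.14 under rosuvastatin and -0.13 under atorvastatin. After quantile normalization these medians were 0.02, 0.01, 0 and -0.04 in the same order. In atorvastatin all 12 were lower as deposited (56.1% of all tested probe sets) and 10 after quantile normalization, where 47.2% of all were higher. Among the 12 was Ckm, muscle creatine kinase, at -0.40 ± 0.12 as deposited (unadjusted p = 0.00371, limma adjusted p = 0.873).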

How the data were processed

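The deposited values are probe set signal intensities on a linear scale. The authors made them with MAS5 (version not given in the sources used here), per the submitters' processing notes, and the series text names GeneSpring GX 11.0 for their analysis. The deposited value table was checked: each array had a mean of 500 once 2% of values were trimmed at each end, no 2 arrays were identical, and Spearman correlations between arrays ran from 0.813 to 0.958. Per the labels, the NuGEN Ovation kit amplified cDNA from 100 ng of total RNA. Detection calls were not used here.

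The 64 control probe sets of 45101 were left out, 16 was added to each signal before log2, and the brighter 50% by mean (22518) entered limma 3.58.1 (R 4.3.3): all 20 arrays, 1 mean per group, empirical Bayes with a trend, 15 residual degrees of freedom, Benjamini-Hochberg adjustment over all tested probe sets, threshold 0.05. Figures used matplotlib 3.10.9. Each sample is 1 mouse, per the series text. The annotation gives 34945 probe sets 1 symbol, 932 several and 9160 none. The brightest probe set stood for a gene, and a second one was named where its unadjusted p was under 0.05, as were up to 2 genes of smallest p per list and statin. Myl9, Actn1, Tagln, Ckm, the genes of the label check and 1427769_x_at were named after their values were seen. Motifs were read from RefSeq promoters. The members, lists and tests were chosen with earlier results of these data known. Replicate numbers were not treated as pairs, and nothing in the labels says whether they mark a shared cage or day. With group means removed, 19 of 40 pairs of arrays with the same number correlated above 0.1 (median r 0.08). For pairs with different numbers it was 46 of 120 (median r -0.04). The procedure was tested on simulated data. Alternatives were quantile normalization, array-median centring, pseudocounts, filters, the prior, the replicate block, array weights, the array median as a covariate, fits of 1 statin with control alone, and fits that leave out 1 array. Chosen after seeing the data were centring on the other bright probe sets and a fit that drops both rosuvastatin 3 and atorvastatin 2.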

Additional observations from a re-analysis of the deposited data

Results flagged for a closer look

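Of 65 groups of 4 mice examined for the 13 named probe sets, 4 held a mouse far from the other 3 on the log2 scale, and chance sets apart about 1 group in 20. Actn2 was 14.25 in pitavastatin 2, against 14.03 to 14.06 in the other pitavastatin mice. Pitavastatin 4 was low for Ttn 1427445_a_at, at 13.85 against 14.01 to 14.04, and for Ldb3 1416752_at, at 13.84 against 13.93 to 13.94. Tnnc1 was 14.82 in control 1, against 15.13 to 15.20 in the other control mice.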

How the results depend on the processing

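No probe set of the 10 genes was called under any alternative. The 65 single results were recomputed 2067 times, and the sign changed in 134, 27 of them by over 1 SE. The median of the 10 genes stayed above 0 in pitavastatin in every alternative (0.062 to 0.183). It ran from -0.206 to 0.028 in pravastatin, from -0.331 to 0.233 in rosuvastatin, from -0.295 to 0.093 in atorvastatin and from -0.126 to 0.097 for the mean of the 4 statins. The 0.233 in rosuvastatin came from centring on the array median; with the array median as a covariate it was 0.098. Calls over all probe sets moved more. The F test called 1 probe set, 0 with array-median centring, without the prior trend or when centred on the other bright probe sets, 5 with the covariate, 185 with array weights and 2 without rosuvastatin 3 and atorvastatin 2. With the replicate number as a block it called 6, and the block changed no call of the 10 genes. Calls with array weights were 16 in pravastatin, 12 in rosuvastatin and 2 for the mean of the statins, and pravastatin had 6 with the covariate. Leaving out 1 array gave 0 to 49 calls in the F test, 0 to 23 in pravastatin, 0 to 17 in rosuvastatin, 0 to 18 in atorvastatin and 0 to 9 for the mean of the statins, each highest without control 1. The causes were not tested. Precision is limited by 4 mice per group.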
